A study of Homo sapiens with 18 samples.

Results

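The HLA class I antigen presentation genes examined here were 9 named genes of the 58051 genes in the count table: the heavy chains HLA-B and HLA-C, the light chain B2M, the peptide transporter subunits TAP1 and TAP2, the loading factor TAPBP, the immunoproteasome subunits PSMB8 and PSMB9, and the transactivator NLRC5. They were chosen by name, with earlier results of these data known and no threshold on their values, and all 9 passed the filter on low counts in every fit. RNA was sequenced from SKMEL2 and SKMEL30, human melanoma cell lines with an NRAS mutation, both stably transduced with a doxycycline-inducible (tet-ON) lentiviral vector carrying PPP2R3B, which encodes a regulatory subunit of the phosphatase PP2A, and both selected with puromycin. Each line had 3 libraries of uninduced cells, labelled Untreated, 3 of cells given doxycycline for 6 h and 3 of cells given it for 18 h, which makes 18 libraries in 6 groups. The labels give the later time as 18 h, whereas the study's text states an earlier hour. Each line is 1 transduced population, and the uninduced cells carried the vector too. Cells given doxycycline without the PPP2R3B vector were not analysed here, so doxycycline and PPP2R3B cannot be told apart. Nothing in the labels says that replicates came from separate cultures, so p-values measure the spread between these libraries, which may be technical.

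Class I molecules display peptides from the cell's own proteins to cytotoxic T cells. The proteasome cuts proteins into peptides, TAP1 and TAP2 pump the peptides into the endoplasmic reticulum, and tapasin, the product of TAPBP, holds an empty heavy chain and its B2M light chain beside the transporter until a peptide binds. Interferon gamma raises these genes through IRF1 and NLRC5, and exchanges the constitutive catalytic subunits of the proteasome for the immunosubunits. Melanomas are known for low or lost class I display, through lost B2M or heavy chains or through weakly expressed transporter and immunosubunit genes.

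Promoters of several of these genes carry elements through which the pathway is known to act. The 200 bases upstream of the transcription start are shown only for the 5 members with an NF-kappaB match. They are RefSeq sequences on GRCh38.p14, written 5′ to 3′ on the strand of the gene, and 8 of the 9 members had an entry, NLRC5 being the exception. Capitals mark a match to an NF-kappaB element, to the interferon-stimulated response element (ISRE, GAAA, any 2 bases and GAAA again), to the core of a cyclic AMP response element (CRE, TGACG) or to CCAAT, each searched on both strands, with overlapping matches merged in the capitals.
HLA-B (chr6:31357180-31357379, minus strand): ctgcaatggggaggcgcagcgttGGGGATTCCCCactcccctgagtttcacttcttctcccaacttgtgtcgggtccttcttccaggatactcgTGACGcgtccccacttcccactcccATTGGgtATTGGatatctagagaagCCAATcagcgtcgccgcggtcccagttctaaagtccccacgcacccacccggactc
HLA-C (chr6:31272093-31272292, minus strand): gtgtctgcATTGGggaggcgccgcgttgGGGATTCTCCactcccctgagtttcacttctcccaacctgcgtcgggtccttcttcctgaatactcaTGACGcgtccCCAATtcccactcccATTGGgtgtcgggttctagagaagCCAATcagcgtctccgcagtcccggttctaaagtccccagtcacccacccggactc
B2M (chr15:44711317-44711516, plus strand): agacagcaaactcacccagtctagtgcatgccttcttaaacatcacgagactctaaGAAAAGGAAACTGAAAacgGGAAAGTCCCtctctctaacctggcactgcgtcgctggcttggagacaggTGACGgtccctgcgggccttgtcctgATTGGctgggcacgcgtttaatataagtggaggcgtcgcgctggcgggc
TAP1 (chr6:32853705-32853904, minus strand): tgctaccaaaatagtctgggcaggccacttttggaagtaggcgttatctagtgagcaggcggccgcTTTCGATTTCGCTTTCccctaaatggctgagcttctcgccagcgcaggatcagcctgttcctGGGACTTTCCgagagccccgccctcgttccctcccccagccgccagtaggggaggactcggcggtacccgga
TAPBP (chr6:33314079-33314278, minus strand): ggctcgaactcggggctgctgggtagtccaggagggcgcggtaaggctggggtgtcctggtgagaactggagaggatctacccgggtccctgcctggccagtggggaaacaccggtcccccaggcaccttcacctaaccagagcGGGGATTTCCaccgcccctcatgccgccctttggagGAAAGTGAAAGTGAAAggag
HLA-B and HLA-C held the NF-kappaB, CRE core and CCAAT letters, the last 2 of which are parts of the conserved class I promoter module. B2M held all 4 motifs. TAP1 and TAPBP held ISRE and NF-kappaB letters. TAP2, not shown, held an ISRE and a CRE core, and PSMB9 and the upstream start of PSMB8 held a CRE core alone. The downstream starts of PSMB8 and TAP1, also not shown, held none of the 4 motifs. Of 35116 RefSeq promoter windows of the same length, 4.2% held the NF-kappaB letters, 2.4% an ISRE, 18.4% a CRE core and 28.0% CCAAT. A match is a description of letters and not a measured binding site. TAP1 and PSMB9 lie head to head on opposite strands, with 488 bases between their starts, and the loci of HLA-C, HLA-B, TAP2, PSMB8, TAP1, PSMB9 and TAPBP all lie on chromosome 6, from chr6:31268749-31272092 for HLA-C to chr6:33299694-33314078 for TAPBP. B2M lies at chr15:44711517-44718145 and NLRC5 at chr16:56989557-57083520.

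Libraries held from 13402645 to 22383470 counts. Induction raised PPP2R3B itself in every comparison, from 17.2 to 24.3 CPM (CPM being the count scaled to a common library size with TMM factors) in uninduced SKMEL2 and from 19.8 to 22.4 CPM in uninduced SKMEL30, by log2 4.38 to 4.88 in 4 of 4 comparisons (edgeR quasi-likelihood test, highest adjusted p = 9.04e-08). C21orf91, the other gene listed as a check on induction, rose by log2 1.12 to 1.29 (edgeR, highest adjusted p = 0.000746). Of 8 melanocyte markers, 7 were at 125 to 5503 CPM in the uninduced libraries of both lines, with PMEL, a melanosome protein, at 1306 to 1732 CPM in SKMEL2 and 5300 to 5503 CPM in SKMEL30. The pigment enzyme gene TYRP1 was at 3.43 to 4.47 CPM in uninduced SKMEL2 and 1234 to 1319 CPM in uninduced SKMEL30. Of 10 leukocyte markers, 6 in uninduced SKMEL2 and 7 in uninduced SKMEL30 had at most 3 counts in every library, and CD3D had 0 counts in all 6 of these libraries. LYZ, at 15.1 to 18.9 CPM in uninduced SKMEL2, and CD68, at 33.7 to 54.8 CPM over both lines, were the leukocyte markers with the most counts. The summed level of 6 endothelial and epithelial markers, keratins among them, was 21.4 to 32.5 CPM in uninduced SKMEL2 and 2.34 to 3.29 CPM in uninduced SKMEL30. Within SKMEL30, keratin genes stood apart in 1 library, that of cells induced for 6 h, replicate 3. There KRT5 was at 37.5 CPM and KRT14 at 26.4 CPM, against 0.380 and 0.822 CPM at most in uninduced SKMEL30. Replicate 3 at 18 h followed, with KRT5 at 6.48 CPM and KRT14 at 4.17 CPM. In the 6 h library B2M was at 234 CPM, TAP1 at 32.8, TAP2 at 88.2 and PSMB9 at 6.21 CPM, each the lowest of the 9 SKMEL30 libraries. The other members were not lowest there: HLA-B was at 56.0 CPM, HLA-C at 200.6, TAPBP at 81.7, PSMB8 at 32.2 and NLRC5 at 5.65 CPM. SKMEL2 uninduced replicate 3 differed most from its replicates. In bulk RNA, fewer cells of a type and less RNA per cell cannot be told apart.

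Reads were 43 bases long and sequenced in pairs, and RSEM divides a read that matches several genes between them. HLA-B, HLA-C and TAP1 had fractional counts in 18 of 18 libraries, TAP2 in 11 and PSMB8 in 9, whereas B2M, TAPBP, NLRC5 and PSMB9 had whole counts throughout. Of all 43-base stretches of the MANE Select transcript (the agreed reference transcript of a gene), 4.6% for HLA-B, 9.9% for HLA-C, 1.4% for TAP1, 35.4% for TAP2 and 8.5% for TAPBP also occurred in another gene, and none did for the other members. These shares are of single stretches and take no account of read pairs. The shared stretches of TAPBP occurred in 1131 other genes. Those of TAP2 occurred in 2, and 1 of these, an overlapping read-through gene, had at most 40 counts in any library, beside 922 to 1890 for TAP2. PSMB8-AS1, which overlaps PSMB8, PSMB9 and TAP1, had 9 to 32 counts, and whether counting used strand is not given in the sources used here. HLA-B and HLA-C vary greatly between people, and how well the alleles of each line match the reference was not tested, so the levels of these 2 genes are less certain between lines than within a line.

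Without induction, 8 of the 9 genes differed between the lines, 6 of them higher and 2 lower in SKMEL30. The lines differ at most genes: 75.9% of all 17133 genes tested passed the same test (35.8% higher and 40.1% lower in SKMEL30), so a count of 8 of 9 lies near the background, and the sizes and directions carry the description. The median difference of the 9 genes was log2 0.69, beside -0.05 over all genes tested. The uninduced libraries of the lines did not overlap for the same 8 of 9 genes, nor for 78.3% of all genes tested. In size, HLA-C lay past a log2 of 3, which 12.2% of all genes tested did with a call, and HLA-B past a log2 of 2, which 18.3% did.

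The heavy chains, which bind the peptide and face the T cell receptor, differed most. HLA-C was at 19.8, 20.5 and 24.0 CPM in the 3 uninduced SKMEL2 libraries and at 222.5, 209 and 198 CPM in those of SKMEL30. Every SKMEL30 library was far above every SKMEL2 library, with a fitted fold of 9.75 and a log2 difference of 3.29 (SE 0.0823, 95% interval 3.11 to 3.46, edgeR adjusted p = 1.23e-17). HLA-B was at 10.2, 14.2 and 11.1 CPM in SKMEL2 and at 64.2, 52.8 and 52.2 CPM in SKMEL30. Its groups did not overlap either, and the log2 difference was 2.25 (SE 0.109, edgeR adjusted p = 3.15e-13).

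B2M, the light chain shared by all class I molecules, went the other way. It was at 361, 364 and 336 CPM in uninduced SKMEL2 and at 264, 239 and 249 CPM in uninduced SKMEL30. All SKMEL30 libraries were below all SKMEL2 libraries, by a log2 difference of -0.50 (SE 0.0518, edgeR adjusted p = 4.11e-08). B2M was thus the more abundant in the line with lower measured HLA-B and HLA-C levels, for which the match of alleles to the reference was not tested.

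Both subunits of the peptide transporter were higher in SKMEL30, but by less than the heavy chains. TAP1 was at 20.5, 21.2 and 17.6 CPM in uninduced SKMEL2 and at 44.6, 34.4 and 35.2 CPM in uninduced SKMEL30, a log2 difference of 0.95 (SE 0.112, edgeR adjusted p = 2.44e-07). TAP2 was at 57.7, 56.8 and 57.3 CPM against 97.3, 88.4 and 91.7 CPM, a log2 difference of 0.69 (SE 0.0558, edgeR adjusted p = 9.05e-10). Neither gene's groups overlapped. TAPBP, which tethers the empty class I molecule to the transporter, was lower in SKMEL30: 126, 137 and 163.5 CPM in uninduced SKMEL2 and 89.6, 84.1 and 76.8 CPM in uninduced SKMEL30, with a log2 difference of -0.77 (SE 0.0793, edgeR adjusted p = 3.28e-08). SKMEL2 uninduced replicate 3, the highest of them, was the library that differed most from its replicates over all genes, and without it the TAPBP difference remained lower in SKMEL30 and called.

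The 2 immunoproteasome subunits did not move together between the lines. PSMB8, which replaces the constitutive subunit PSMB5, was at 23.7, 25.7 and 22.4 CPM in uninduced SKMEL2 and at 34.2, 30.8 and 30.3 CPM in uninduced SKMEL30, a log2 difference of 0.41 (SE 0.0865, edgeR adjusted p = 0.000281). PSMB9, which replaces PSMB6, was at 7.04, 8.55 and 7.34 CPM and at 8.28, 7.69 and 6.77 CPM. Its groups overlapped, and the log2 difference was -0.01 with a 95% interval of -0.27 to 0.25 (edgeR adjusted p = 0.939), which in linear terms is 0.828-fold to 1.19-fold.

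NLRC5, the transactivator of class I promoters, was the least abundant member in both lines. It was at 2.44, 1.59 and 2.15 CPM (32 to 49 counts) in uninduced SKMEL2 and at 6.36, 4.85 and 6.26 CPM (89 to 113 counts) in uninduced SKMEL30. The groups did not overlap, and the log2 difference was 1.50 (SE 0.184, edgeR adjusted p = 4.11e-07). CIITA, the related transactivator of class II genes, was also higher in SKMEL30, by log2 1.71 (SE 0.258, edgeR adjusted p = 6.09e-06).

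**Figure D1:**
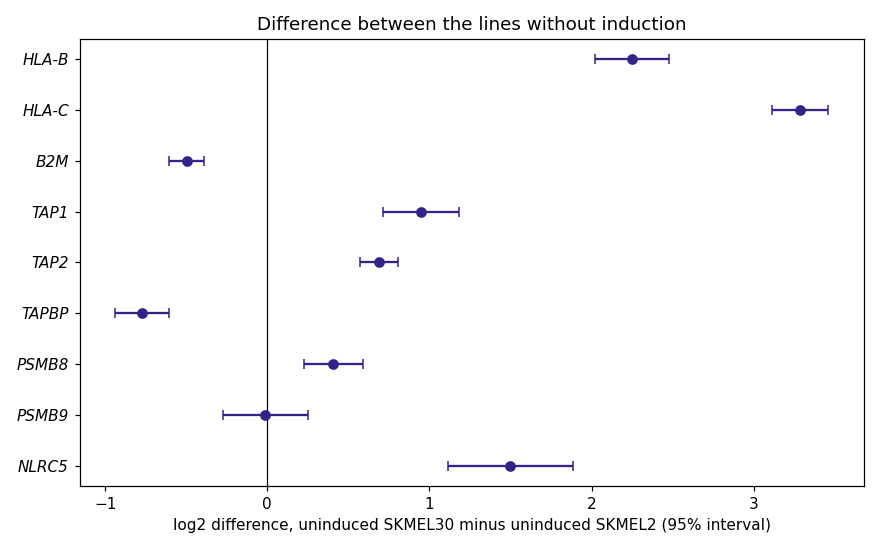
Log2 difference of each of the 9 genes between uninduced SKMEL30 and uninduced SKMEL2 (x axis, points are edgeR estimates from 3 libraries a line, bars are 95% intervals, and values right of the line at 0 are higher in SKMEL30). HLA-C at 3.29 and HLA-B at 2.25 lie farthest to the right, B2M and TAPBP lie to the left of 0, and the interval of PSMB9 spans 0.

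To compare levels between genes, CPM was divided by the length of the MANE Select transcript in kilobases. In uninduced SKMEL2 the level per kb fell from B2M at 375 CPM per kb through TAPBP at 41.3, PSMB8 at 21.3, HLA-C at 13.9 and TAP2 at 10.2 to HLA-B at 7.71, PSMB9 at 7.52 and TAP1 at 7.36, and NLRC5 was last at 0.304. The ranges of HLA-B and PSMB9 overlapped, as did those of PSMB9 and TAP1, and no other neighbours in this order overlapped. In uninduced SKMEL30 the order was B2M at 266 CPM per kb, HLA-C at 136, HLA-B at 36.7, PSMB8 at 28.2, TAPBP at 24.2, TAP2 at 16.4, TAP1 at 14.2, PSMB9 at 7.45 and NLRC5 at 0.859, and only the ranges of TAP2 and TAP1 overlapped. The heavy chains held ranks 4 and 6 in SKMEL2 and ranks 2 and 3 in SKMEL30. With the longest annotated transcript as the length, HLA-C at 112 CPM per kb and B2M at 108 CPM per kb overlapped in SKMEL30, TAPBP at 20.2 CPM per kb stood above HLA-B at 15.9, and PSMB8 fell to rank 7. The heavy chains then held ranks 3 and 7 in SKMEL2 and 1 and 4 in SKMEL30, so the order between genes depends on the length used.

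The heavy chains were also set against B2M within each library. As B2M was lower and the heavy chains higher in SKMEL30, these ratios necessarily differ more between the lines than either gene alone. The ratio of HLA-C to B2M per kb was 0.0335 to 0.0521 over the 9 SKMEL2 libraries and 0.485 to 0.535 over the 9 SKMEL30 libraries. HLA-B to B2M was 0.0174 to 0.0256 in SKMEL2 and 0.122 to 0.149 in SKMEL30. The ratio of the 2 heavy chain levels differed as well, with HLA-C to HLA-B at 1.44 to 2.16 in SKMEL2 and 3.46 to 4.05 in SKMEL30. How well the alleles of each line match the reference was not tested, which limits this ratio within a line too. The sizes of all these ratios also depend on the length used. With the longest annotated transcript HLA-C to B2M was 0.0679 to 0.1055 in SKMEL2 and 0.982 to 1.08 in SKMEL30, and HLA-C to HLA-B was 2.73 to 4.09 and 6.55 to 7.68, so the lines stayed apart. TAP1 to TAP2 was 0.646 to 0.838 in SKMEL2 and 0.772 to 0.963 in SKMEL30, with overlap.

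The immunosubunits were scarce beside the constitutive subunits they replace. PSMB8 to PSMB5 per kb was 0.216 to 0.279 in SKMEL2 and 0.301 to 0.353 in SKMEL30, without overlap. PSMB9 to PSMB6 was 0.148 to 0.245 in SKMEL2 and 0.0873 to 0.120 in SKMEL30, again without overlap but with SKMEL30 the lower line. With the longest annotated transcript the first ratio was 0.109 to 0.141 and 0.153 to 0.179, and the second 0.0595 to 0.0984 and 0.0351 to 0.0480. PSMB6 itself was higher in SKMEL30, by log2 0.75 (SE 0.0682, edgeR adjusted p = 5.42e-09), whereas PSMB9 was not called. PSMB10, the remaining immunosubunit, stood to PSMB7 at 0.0537 to 0.0830 in SKMEL2 and 0.0505 to 0.0711 in SKMEL30, with overlap. How often ratios of other gene pairs separate the lines was not computed. Of single genes tested, 78.3% separated the uninduced lines.

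**Figure D2:**
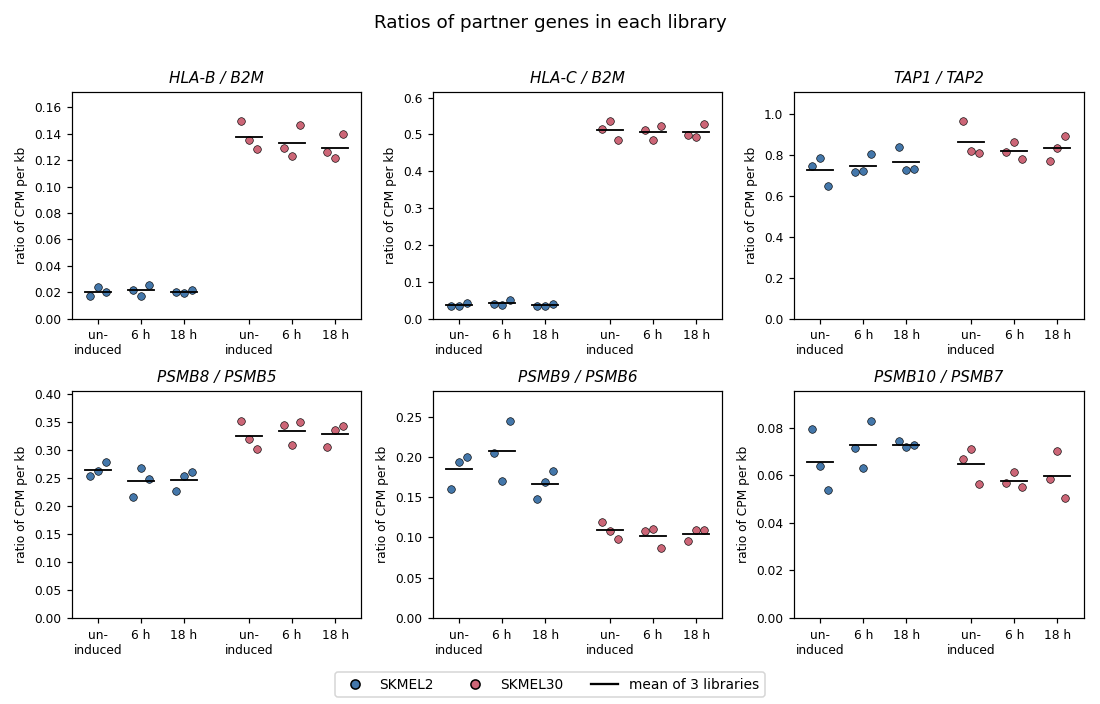
Ratio of the level per kb of 2 partner genes (y axis, CPM per kb of MANE Select transcript over the same) in each of the 18 libraries, by line and time of induction (points are libraries, horizontal lines are means of 3). HLA-B and HLA-C against B2M and PSMB8 against PSMB5 lie higher in SKMEL30, PSMB9 against PSMB6 lies lower, and the TAP1 to TAP2 and PSMB10 to PSMB7 ratios overlap between the lines.

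Other genes of the pathway, in lists of related genes, differed between the uninduced lines in both directions. Over all 17133 genes tested, 75.9% were called, 35.8% higher and 40.1% lower in SKMEL30. A count of called genes in a list therefore carries little by itself. Of 6 other class I heavy chains and relatives, 4 were tested and 3 were higher in SKMEL30: HLA-E, which presents leader peptides to natural killer cells, at 62.5 to 67.2 CPM in SKMEL2 and 150 to 158 CPM in SKMEL30 (log2 1.24, SE 0.0485), HLA-F by log2 2.91 (SE 0.126), and the iron regulator HFE, which had at most 3 counts in uninduced SKMEL2 and 220 to 249 in uninduced SKMEL30. All 9 genes of peptide loading and trimming were called, 5 higher and 4 lower in SKMEL30. The chaperones CALR and CANX were higher by log2 0.45 and 0.42. The peptide-trimming aminopeptidases ERAP1 and ERAP2 were lower by log2 differences of -1.57 and -1.48, as were PDIA3 at -0.57 and the tapasin relative TAPBPL at -1.15. None of the proteasome activator genes was higher: PSME1 differed by log2 -0.48 and PSME2 by log2 -0.13, both called.

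The counts of the next lists also stand beside 35.8% of all genes tested called higher and 40.1% called lower in SKMEL30. Of 13 transcription factors of class I and II promoters, 7 were higher in SKMEL30, 4 were lower and 2 were not called. IRF1, an interferon-induced activator of class I and immunosubunit promoters, was higher by log2 0.72 (SE 0.123), and RFX5, a subunit of the complex through which NLRC5 reaches class I promoters, was lower by log2 -0.35 (SE 0.0451). Of 12 interferon signalling genes, 5 were higher and 3 lower. IRF9 was higher by log2 2.23, and the kinase JAK2 was lower by log2 -2.11. Of 40 interferon-stimulated genes, 35 were tested, and 27 were higher and 6 lower in SKMEL30, with a median log2 difference of 1.55 beside -0.05 over all genes tested. MX1, an antiviral GTPase, was at 2.33 to 2.74 CPM in uninduced SKMEL2 and 125 to 202 CPM in uninduced SKMEL30. The guanylate-binding protein genes ran the other way, with GBP4 at 12.5 to 13.4 CPM in SKMEL2 and 0.218 to 0.696 CPM in SKMEL30. Of 9 class II genes, 8 were tested, with 7 higher and 1, CD74, lower in SKMEL30 by log2 -2.13 (SE 0.129). CD74 encodes the invariant chain that class II molecules need in order to fold. The higher class I heavy chains in SKMEL30 thus stood beside higher levels of most of the interferon-stimulated genes tested and lower levels of some, and the part of either in the other was not tested.

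The second question was whether induction of PPP2R3B changed these genes. None of the 9 was called in either line at either time. In SKMEL2, 0 of 9 members were called at 6 h and 0 of 9 at 18 h, beside 0.0124% of all 16120 genes tested at each time. In SKMEL30, 0 of 9 were called at 6 h beside 0.206% of 15026 genes, and 0 of 9 at 18 h beside 0.293%. At such background shares a count of 0 among 9 genes carries little by itself, and the intervals say more. At an unadjusted p under 0.05 the count was 1 of 9 in SKMEL2 at 6 h and 0 in the other 3 comparisons, and DESeq2 gave the same counts and also called 0 members. The 95% interval lay within a log2 change of 0.5 in either direction, which is 1.41-fold, for 7 of 9 members in SKMEL2 at 6 h, for 8 at 18 h, and for 9 at each time in SKMEL30. All 9 intervals lay within a log2 change of 1 in each of the 4 comparisons. PPP2R3B, in the same libraries, rose by more than a log2 of 4.

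**Figure D3:**
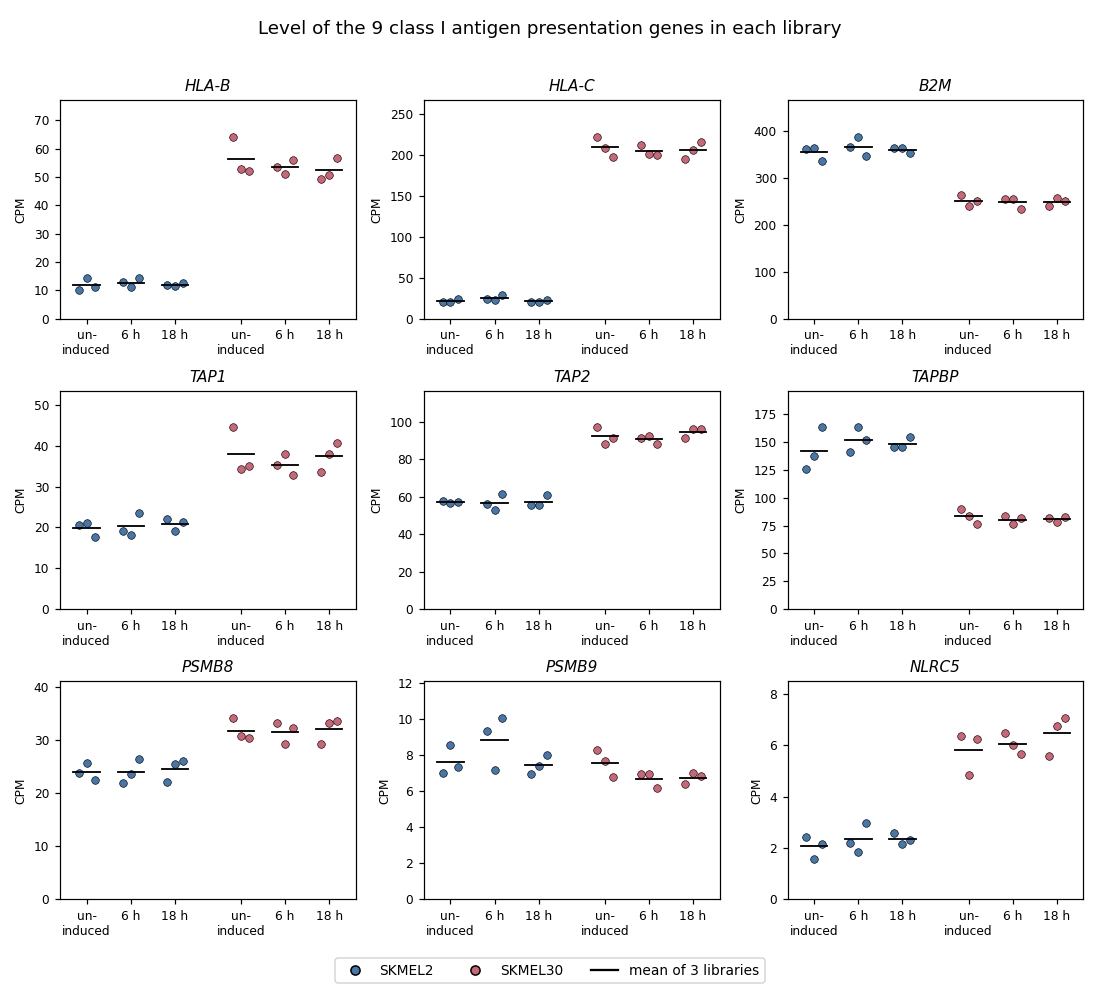
Level of each of the 9 genes (y axis, CPM from 0, with a scale of its own in each panel) in the 18 libraries, by line and time of induction (points are libraries, horizontal lines are means of 3). Within a line the libraries of each induced time overlap the uninduced ones for every gene, whereas for all genes but PSMB9 the uninduced libraries of the 2 lines separate, as they do for 78.3% of all genes tested.

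HLA-C in SKMEL2 came nearest to a change. Its 6 h libraries were at 24.4, 23.4 and 29.4 CPM and its 18 h libraries at 20.2, 20.8 and 23.3 CPM, beside 19.8, 20.5 and 24.0 CPM without induction. The 6 h libraries lay above 2 of the 3 uninduced ones, replicate 3 was highest in each group, and the 18 h libraries lay within the uninduced range. The log2 change was 0.26 at 6 h (SE 0.108, 95% interval 0.03 to 0.50, unadjusted p = 0.0314 and adjusted p = 0.989 in edgeR) and -0.01 at 18 h (SE 0.108), and without SKMEL2 induced for 6 h, replicate 3, the 6 h value was 0.15. In SKMEL30 HLA-C was at 213, 202 and 201 CPM at 6 h and 195, 207 and 216 CPM at 18 h, all within or just below the uninduced range of 198 to 222.5 CPM, and the log2 changes were -0.04 and -0.03 (SE 0.0449 each).

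HLA-B in SKMEL2 was at 12.8, 11.0 and 14.4 CPM at 6 h and 12.0, 11.6 and 12.5 CPM at 18 h, overlapping the uninduced 10.2 to 14.2 CPM. Its log2 changes were 0.10 (SE 0.133) and 0.02 (SE 0.132). In SKMEL30 it was at 53.5, 51.2 and 56.0 CPM at 6 h and 49.2, 50.8 and 56.8 CPM at 18 h. Uninduced replicate 1, at 64.2 CPM, was the highest of the 9 SKMEL30 libraries, and the log2 changes of -0.08 (SE 0.0756) and -0.11 (SE 0.0761) leaned on it: without it the 6 h value was 0.03.

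B2M had the narrowest intervals of the class I chains. In SKMEL2 it was at 366, 387 and 346 CPM at 6 h and 364, 363 and 353 CPM at 18 h, spanning the uninduced 336 to 364 CPM, with log2 changes of 0.05 and 0.02 (SE 0.0571 and 0.0570). In SKMEL30 it was at 255, 255 and 234 CPM and then 239, 257 and 249.5 CPM, again across the uninduced range of 239 to 264 CPM, with log2 changes of -0.02 and -0.01 (SE 0.0413 each). The 95% intervals bounded the change of B2M between 0.932-fold and 1.11-fold at 18 h in SKMEL2 and between 0.931-fold and 1.05-fold at 18 h in SKMEL30.

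The transporter subunits likewise overlapped their uninduced levels. TAP1 in SKMEL2 was at 19.1, 18.1 and 23.6 CPM at 6 h and 22.2, 19.2 and 21.2 CPM at 18 h, with log2 changes of 0.04 (SE 0.114) and 0.08 (SE 0.113). In SKMEL30 TAP1 was at 35.4, 38.0 and 32.8 CPM and then 33.6, 38.1 and 40.7 CPM, all below uninduced replicate 1 at 44.6 CPM but spread around the other two uninduced libraries at 34.4 and 35.2 CPM. The log2 changes of -0.11 (SE 0.0952) and -0.02 (SE 0.0949) became 0.02 and 0.11 without that library. TAP2 was steadier, between 52.9 and 61.6 CPM over the 9 SKMEL2 libraries and between 88.2 and 97.3 CPM over the 9 SKMEL30 libraries, and its 4 log2 changes ran from -0.03 to 0.03. TAPBP ran from 126 to 163.5 CPM over the SKMEL2 libraries and from 76.2 to 89.6 CPM over the SKMEL30 libraries, with log2 changes of 0.10 and 0.06 (SE 0.0864 and 0.0862) in SKMEL2 and -0.06 and -0.04 (SE 0.0542 and 0.0543) in SKMEL30.

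Of the immunosubunits, PSMB8 was flat within its spread and PSMB9 differed in sign between the lines at 6 h. PSMB8 ran from 21.9 to 26.4 CPM over the SKMEL2 libraries and from 29.2 to 34.2 CPM over the SKMEL30 libraries, and its 4 log2 changes ran from -0.02 to 0.03. PSMB9 in SKMEL2 was at 9.36, 7.17 and 10.1 CPM at 6 h and 6.94, 7.38 and 7.99 CPM at 18 h, beside 7.04, 8.55 and 7.34 CPM without induction, with log2 changes of 0.22 (SE 0.142) and -0.05 (SE 0.142). In SKMEL30 it was at 6.93, 6.97 and 6.21 CPM at 6 h and 6.41, 7.004 and 6.86 CPM at 18 h, beside 8.28, 7.69 and 6.77 CPM without induction. Of these 6 induced libraries, all lay below 2 of the 3 uninduced ones and on both sides of the third, with log2 changes of -0.19 and -0.17 (SE 0.106 each, edgeR adjusted p = 0.805 and 0.684). The 6 induced libraries against the 3 uninduced ones gave a log2 difference of -0.17 (two-sided exact permutation test, p = 0.0714, where 84 splits allow a smallest p of 0.0119), the lowest p among 18 such tests of the 9 genes in the 2 lines. The lowest of the 6, at 6.21 CPM, was the library with the most keratin counts, and without it the 6 h change was -0.13 (edgeR adjusted p = 0.818) and the exact permutation test gave -0.14 (p = 0.0893, where 56 splits allow a smallest p of 0.0179).

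NLRC5 had the widest intervals, at 32 to 59 counts a library in SKMEL2 and 83 to 129 in SKMEL30. In SKMEL2 it was at 2.22, 1.84 and 2.97 CPM at 6 h and 2.59, 2.17 and 2.32 CPM at 18 h, with log2 changes of 0.18 (SE 0.241, 95% interval -0.34 to 0.71) and 0.20 (SE 0.237). In SKMEL30 it was at 6.47, 6.02 and 5.65 CPM and then 5.60, 6.74 and 7.08 CPM, with log2 changes of 0.05 and 0.15 (SE 0.135 and 0.134). At 18 h in SKMEL2 the interval ran from 0.802-fold to 1.64-fold.

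**Figure D4:**
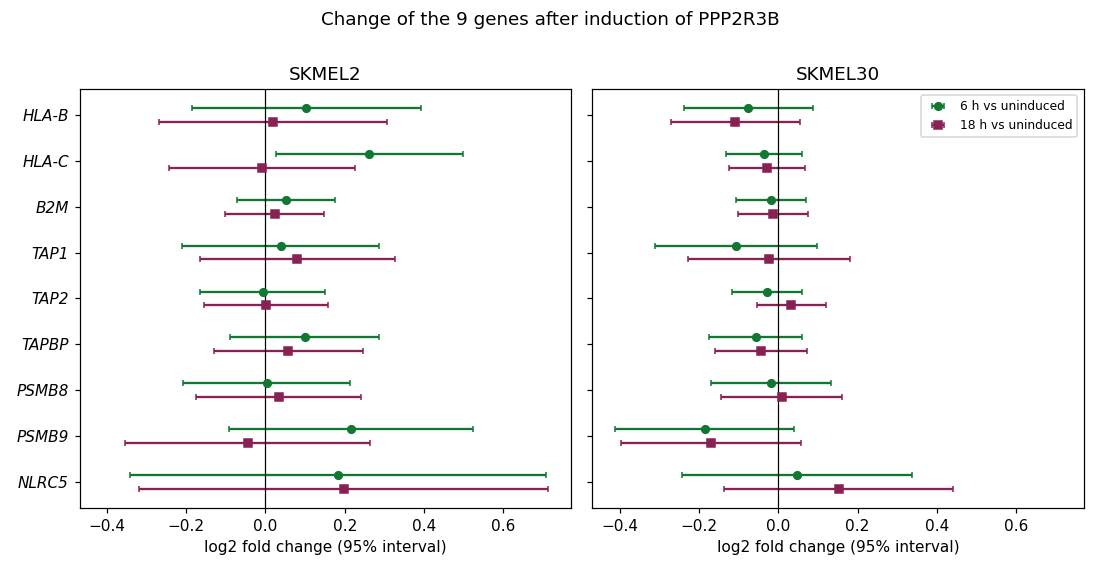
Log2 change of each of the 9 genes after induction of PPP2R3B for 6 h (circles) and 18 h (squares) against uninduced cells, in SKMEL2 and SKMEL30 (points are edgeR estimates from 3 libraries a group, bars are 95% intervals). The intervals include 0 except that of HLA-C in SKMEL2 at 6 h, which runs from 0.03 to 0.50 and was not called after adjustment, and those of NLRC5 are the widest.

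In no case did all 3 induced libraries of a time lie above, or all below, the 3 uninduced ones, in either line, and the same held for the 6 induced libraries of a line together. Over all genes tested such separation occurred for 6.8% at 6 h and 14.3% at 18 h in SKMEL2, and for 11.3% and 16.0% in SKMEL30, and for the 6 induced libraries together in 2.48% and 4.37%. The median log2 change of the 9 genes was 0.10 at 6 h and 0.02 at 18 h in SKMEL2, with 8 and 7 of 9 positive, and -0.04 and -0.02 in SKMEL30, with 8 and 6 of 9 negative. Without SKMEL30 uninduced replicate 1 only 2 of 9 were negative at each time. Without SKMEL2 induced for 18 h, replicate 3, 4 of 9 were positive at 18 h in SKMEL2. The signs in these comparisons thus rested on single libraries. In SKMEL2 at 6 h a majority stayed positive with each library left out. The fewest were 5 of 9, without SKMEL2 induced for 6 h, replicate 3, where the median log2 change was 0.0001. The medians over all genes tested were between -0.001 and 0.003. Both times were compared with the same 3 uninduced libraries of a line, so their directions are not independent.

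Between 6 h and 18 h, 0 of 9 members were called in SKMEL2 (0.0% of all genes tested) and 0 of 9 in SKMEL30 (0.02%). HLA-C in SKMEL2 had all 3 libraries at 18 h below all 3 at 6 h, narrowly, with 23.3 CPM as the highest of the former and 23.4 CPM as the lowest of the latter. The share of all genes so separated between the times was not computed. Against uninduced cells such separation occurred for 6.8% to 16.0% of genes. The log2 difference of -0.27 was not called (SE 0.108, unadjusted p = 0.0273 and adjusted p = 0.9998 in edgeR). The difference in response between the lines, tested as an interaction over all 18 libraries, was called for 0 of 9 members at 6 h (0.0% of 17133 genes) and 0 of 9 at 18 h (0.00584%). At 6 h the estimate was lower in SKMEL30 for 9 of 9 members, beside 8385 of 17133 genes tested. The 9 estimates come from the same libraries, so their signs are not independent. The lowest p values were those of HLA-C (log2 -0.29, SE 0.114, unadjusted p = 0.0212 and adjusted p = 0.902 in edgeR) and PSMB9 (log2 -0.39, SE 0.177, unadjusted p = 0.0383 and adjusted p = 0.902 in edgeR). The response of HLA-C at 6 h was therefore not shown to differ between the lines.

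None of the other pathway genes was called after induction. In each of the 4 comparisons 0 genes were called among the other class I heavy chains (3 or 4 tested), the 9 genes of peptide loading and trimming, PSMB10 with the PA28 genes, the constitutive catalytic subunits, the 13 promoter factors, the interferon signalling genes (11 or 12 tested), the interferon-stimulated genes (30 tested in SKMEL2 and 34 in SKMEL30) and the class II genes (5 or 8 tested). At an unadjusted p under 0.05 there were 3 and 5 of 30 interferon-stimulated genes at 6 h and 18 h in SKMEL2 (beside 3.37% and 4.65% of all genes tested), and 0 and 1 of 34 in SKMEL30 (beside 6.44% and 9.14%). In SKMEL2 24 and 22 of the 30 were higher than without induction, beside 8200 and 8052 of 16120 genes tested. In SKMEL30 17 and 21 of the 34 were higher, beside 7556 and 7555 of 15026. IRF1 differed by log2 0.03 and -0.01 in SKMEL2 and by -0.04 and 0.13 in SKMEL30 (SE 0.101 to 0.151).

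Within a line, the members varied together more in SKMEL30 than in SKMEL2. Over the 9 libraries of a line, the median Pearson r between 2 members was 0.57 in SKMEL30, with 34 of 36 pairs positive, and 0.20 in SKMEL2, with 23 of 36 positive. These values describe 9 libraries that share a line, a depth range and 3 conditions, and carry no test. The 36 pairs come from 9 genes and are not independent, and the same values for other gene pairs were not computed. The summed level of the 9 members in SKMEL30 was 831 CPM in uninduced replicate 1, beside 751 and 746 CPM in the other two uninduced libraries and 732 to 790 CPM in the 6 induced ones. The summed level of the 40 interferon-stimulated genes was also highest in that library, at 2044 CPM beside 1533 and 1466 CPM, and ran from 1404 to 1864 CPM in the induced libraries. The part of that library-to-library variation in the negative estimates of SKMEL30 was not tested. In SKMEL2 the sum of the 9 members was 629 to 650 CPM without induction, 653 to 688 CPM at 6 h and 651 to 662 CPM at 18 h, and B2M alone made up at least 336 CPM of each. The interferon-stimulated sum in SKMEL2 was 665 to 678 CPM without induction and 687 to 710 CPM over the 6 induced libraries. No gene of that list was called. For both sums every induced SKMEL2 library lay above every uninduced one, by 650.7 against 649.9 CPM at the closest for the 9 members. Of single genes tested in SKMEL2, 2.48% were so separated, and the share among sums of other gene sets was not computed. These sums were not tested.

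**Figure D5:**
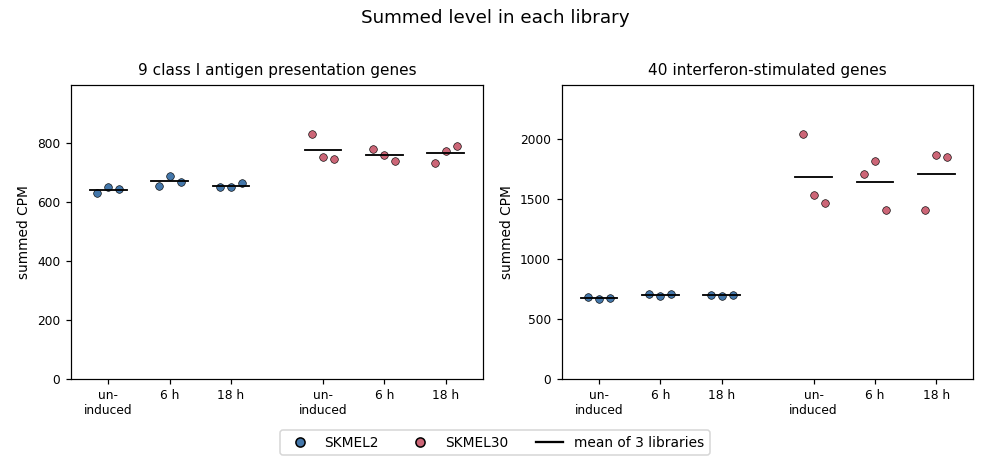
Summed level (y axis, CPM from 0) of the 9 class I antigen presentation genes and of 40 interferon-stimulated genes in each of the 18 libraries (points are libraries, horizontal lines are means of 3). SKMEL30 uninduced replicate 1 is the highest library in both panels, at 831 and 2044 CPM, and the interferon-stimulated sum of SKMEL30 lies above that of SKMEL2 in all libraries.

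The 5 genes whose levels followed the mean log2 level of the 9 members most closely in both lines, by the lower of 2 Pearson r values over 9 libraries each among 14079 genes, were LGALS3BP (r = 0.916 in SKMEL2 and 0.868 in SKMEL30), LY6E (0.896 and 0.862), IRF7 (0.839 and 0.948), IFI35 (0.900 and 0.826) and TRIM25 (0.825 and 0.838). They were picked as the highest of many, so their r values are a description. IRF7 and IFI35 also belong to the list of interferon-stimulated genes.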

How the data were processed

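RNA was prepared with a kit for mRNA and sequenced from the 18 libraries. The authors trimmed the reads, aligned them to GRCh38 and estimated counts per gene; the submitters' processing notes name Trimmomatic 0.36, cutadapt 1.5, STAR 2.2.2a, SAMtools 1.8 and RSEM 1.3.0. The deposited values are RSEM expected counts (estimated counts per gene) without scaling, of which 12.3% are not whole, and they were rounded before use. Symbols matched 95.8% of gene IDs. In edgeR 4.0.16 (R 4.3.3), genes were filtered by filterByExpr, scaled by TMM and tested by the quasi-likelihood test, with the 9 libraries of a line in 1 fit and all 18 in 1 fit for comparisons between lines. Calls were made where p, adjusted by Benjamini and Hochberg's method over all genes tested, was under 0.05. The standard error was the log2 change divided by the square root of F. The steps were tested on simulated data. DESeq2 1.42.0 was an alternative.

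The members and lists were chosen with earlier results of these data known. The text names the 9 members, PPP2R3B and C21orf91, PSMB5, PSMB6, PSMB7, PSMB10, IRF1, RFX5 and CIITA by rule, with the 5 genes of most similar pattern (correlation of log2(CPM + 0.5)); further list genes were picked with their values in view. The MANE Select length, from GENCODE on GRCh37, was chosen after the planned union of exons proved to include a read-through transcript of HLA-B. Of 138 list genes 137 had an ID, and 2 further genes of the pathway are not reported here. Libraries with the same replicate number deviated together weakly or not at all. In SKMEL2 the correlation of deviations from group means was -0.13 to 0.17, above 0.1 for 3 of 9 pairs. In SKMEL30 it was -0.022 to 0.12, above 0.1 for 1 of 9. The replicate numbers were taken not to pair samples. The exact test without the keratin-rich library was chosen after seeing the data. Replicates differed by more than counting noise.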

Additional observations from a re-analysis of the deposited data

How the results depend on the processing

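The number of members called stayed at 0 in each induction, time and interaction comparison, and at 8 between the uninduced lines, under every alternative run: RLE factors, no filter, at least 10 counts in every library, all 18 libraries in a single fit, only the libraries compared, DESeq2, and each library left out in turn. With the replicate number as a block the counts of members called were likewise 0 and 8. The block turned the sign of 2 uncalled values, TAP2 in SKMEL2 at 18 h (-0.0001) and PSMB9 between the lines (0.0638), and moved the genes called from 2 to 7 at 18 h in SKMEL2 and from 3 to 16 between the times in SKMEL30. Without the filter PSMB8 in SKMEL2 at 6 h was -0.0101 and TAP2 at 18 h -0.0004, and in the single fit PSMB8 was -0.0012. Signs of small changes depended on single libraries. With each left out in turn the log2 changes were, in SKMEL2 at 6 h, TAP1 -0.088 to 0.12, TAP2 -0.0755 to 0.047, NLRC5 -0.026 to 0.33 and PSMB8 -0.079 to 0.073. In SKMEL2 at 18 h they were HLA-B -0.067 to 0.17, HLA-C -0.0665 to 0.0799, B2M -0.0156 to 0.043, TAP1 -0.0009 to 0.13, TAP2 -0.039 to 0.022, TAPBP -0.017 to 0.17, PSMB8 -0.017 to 0.10 and PSMB9 -0.094 to 0.041. In SKMEL30 at 6 h they were HLA-B -0.13 to 0.028, HLA-C -0.076 to 0.0078, B2M -0.053 to 0.0197, TAP1 -0.18 to 0.023, TAP2 -0.0615 to 0.0094, NLRC5 -0.073 to 0.12 and PSMB8 -0.0505 to 0.039. In SKMEL30 at 18 h they were HLA-C -0.067 to 0.016, B2M -0.048 to 0.025, TAP1 -0.094 to 0.11, TAPBP -0.097 to 0.0103 and PSMB8 -0.031 to 0.073. PSMB9 between the lines ran from -0.068 to 0.087. The causes were not tested.

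Counts over all genes moved more. Without the filter on low counts 158 and 168 genes were called in SKMEL2 at 6 h and 18 h in place of 2 and 2, and 321 and 359 in SKMEL30 in place of 31 and 44. All 18 libraries in a single fit gave 6, 7, 5 and 9, and DESeq2 called 8 and 11 in SKMEL2. Leaving out 1 library gave 16 to 33 and 25 to 30 genes in SKMEL30. Between the times, the unfiltered fits called 135 genes in SKMEL2 in place of 0 and 197 in SKMEL30 in place of 3, and for the interactions 237 in place of 0 and 216 in place of 1. Levels per kb rest on the transcript length chosen, and the depth limits NLRC5 most.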
